A study of Homo sapiens with 6 samples.

Results

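The genes described here are 44 components of the unfolded protein response and of endoplasmic reticulum (ER)-associated degradation (ERAD), chosen by name from a list of ER chaperones, disulfide isomerases, stress sensors, degradation factors and translocon genes. Their levels were set side by side in 3 variants of HT-29, a cell line from a human colon adenocarcinoma. Of the 44 genes, 40 could be tested, out of 19775 genes that had a probe set of their own on the array. ERO1B and DERL3 were under the filter on low signal, and PDIA5 and SYVN1 had no probe set that named them alone.

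The variants were labelled wild type, BR100 and BR200. The labels describe HT-29 kept in bortezomib, a drug that blocks the catalytic core of the proteasome, at concentrations stepped up from 20 nM to 300 nM during 7 months. Clones were then isolated in 2 rounds of limiting dilution while 100 nM or 300 nM of the drug stayed on the cells, which took 4 months more. That account stands unchanged on all 6 samples, the wild type ones too. The labels do not say which dose BR200 was cloned under, how many clones a variant stands for, or whether any culture held bortezomib at harvest. Each variant was measured on 2 arrays, 1 labelled from 100 ng of total RNA with an Express kit and 1 from 3 ug with a One-Cycle kit. Nothing in the labels says that these came from separate cultures, so the p-values below measure the spread between arrays, which may be technical, with the kits' difference taken out.

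Proteins that enter the ER are folded there by chaperones and oxidised by disulfide isomerases, and those that fail to fold are drawn back into the cytosol, ubiquitinated and destroyed by the proteasome. Load on the folding machinery is read by transmembrane sensors. IRE1, encoded by ERN1, splices the XBP1 messenger RNA into the form that encodes an active transcription factor. ATF6 is cut in the Golgi to release a transcription factor, and PERK, encoded by EIF2AK3, phosphorylates eIF2alpha, which slows translation and favours that of ATF4. ATF6 and spliced XBP1 act on promoters through ER stress response elements. Secretory cells of the intestine depend on this response, and proteasome inhibitors can trigger it, because ERAD ends at the proteasome.

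Values were log2 GCRMA signals, and all 6 arrays shared a lowest value of 2.23. Colon epithelial identity was checked with 12 markers, of which 8 were tested. EPCAM, KRT8, KRT18 and KRT19 stood between 13.57 and 15.43 on every array, whereas CDX1, CDX2, CDH17 and GPA33 were at or near the lowest value in all 3 variants, and KRT20, CDH1, VIL1 and LGALS4 fell in both resistant variants. The log2 of the summed signal of this list was 17.31 to 17.35 in wild type, 17.00 to 17.01 in BR100 and 17.07 in BR200. The defining genes of blood cells (PTPRC, CD3E, HBB), fibroblasts (COL1A2, COL3A1, DCN, LUM, PDGFRB) and endothelium (PECAM1, VWF, CDH5, KDR) were below 2.7 on every array. LYZ, of the blood list, was at 14.34 to 14.84, and the summed fibroblast and endothelial signals were no higher than 7.28 and 5.52 on any array. The other tested members of these lists were at low to moderate signal. CD14, of the blood list, was at 5.33 to 6.76 and rose in BR200 (1.05). ACTA2, of the fibroblast list, rose by 1.02 and 1.13 from 3.82 and 4.69, TAGLN changed by −1.10 in BR100 from 4.02 and 4.16, and COL1A1 stood at 5.36 to 5.81 and fell by 0.33 in BR100. ENG, of the endothelial list, was at 4.61 to 4.70. Their part in the results was not tested. The log2 gap between the 3' and 5' control probe sets of ACTB, which widens with RNA breakdown and depends on labelling, was 4.22 and 2.99 on the wild type arrays, 3.03 and 1.86 for BR100 and 3.24 and 1.76 for BR200 (Express, then One-Cycle). That of GAPDH was 0.48 and 0.40, then 0.22 and 0.16, then 0.20 and 0.18. These gaps moved with the variants, and their part in the results below was not tested.

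Most of the response was lower in both resistant variants than in wild type. In BR100, 24 of the 40 tested genes fell (60.0%) and 6 rose (15.0%), and 10 did not pass, where 31.8% of all 10370 genes tested fell and 36.7% rose (limma, Benjamini-Hochberg adjusted p under 0.05 over all of them). In BR200, 28 fell (70.0%) and 5 rose (12.5%), against 31.2% and 35.4% of all genes. The median log2 change of the 40 genes was −0.59 in BR100 and −0.77 in BR200, and that of all genes was 0.04 in both. At least 2-fold falls were called for 16 of the 40 in BR100 (background 12.0%) and 17 in BR200 (10.7%). At least 2-fold rises were called for 5 (13.7%) and 2 (13.0%). Both comparisons use the same wild type arrays, so an error in those arrays would enter both. Direction by direction, 23 genes fell in both resistant variants and 5 rose in both (CALR, CRELD2, ERO1A, VCP and UFD1). The shares of all genes that fell or rose in both were not counted, so this agreement describes these genes alone. A further 5 fell in BR200 without passing in BR100 (MANF, PDIA4, EDEM1, DERL2 and SELENOS), WFS1 fell and SDF2L1 rose in BR100 without passing in BR200, and 5 passed in neither (HSP90B1, PDIA6, OS9, EDEM2 and NPLOC4). Without the kit block, the BR100 calls of HYOU1, PDIA3, EDEM3, SEC61B, SERP1, WFS1, CALR and SDF2L1 were lost, as were the BR200 calls of MANF, PDIA3, PDIA4, EDEM1, EDEM3, DERL2, SEC61B and CALR. Of the 7 genes that passed in a single variant, the difference between the variants itself passed for PDIA4 and SELENOS.

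**Figure D1:**
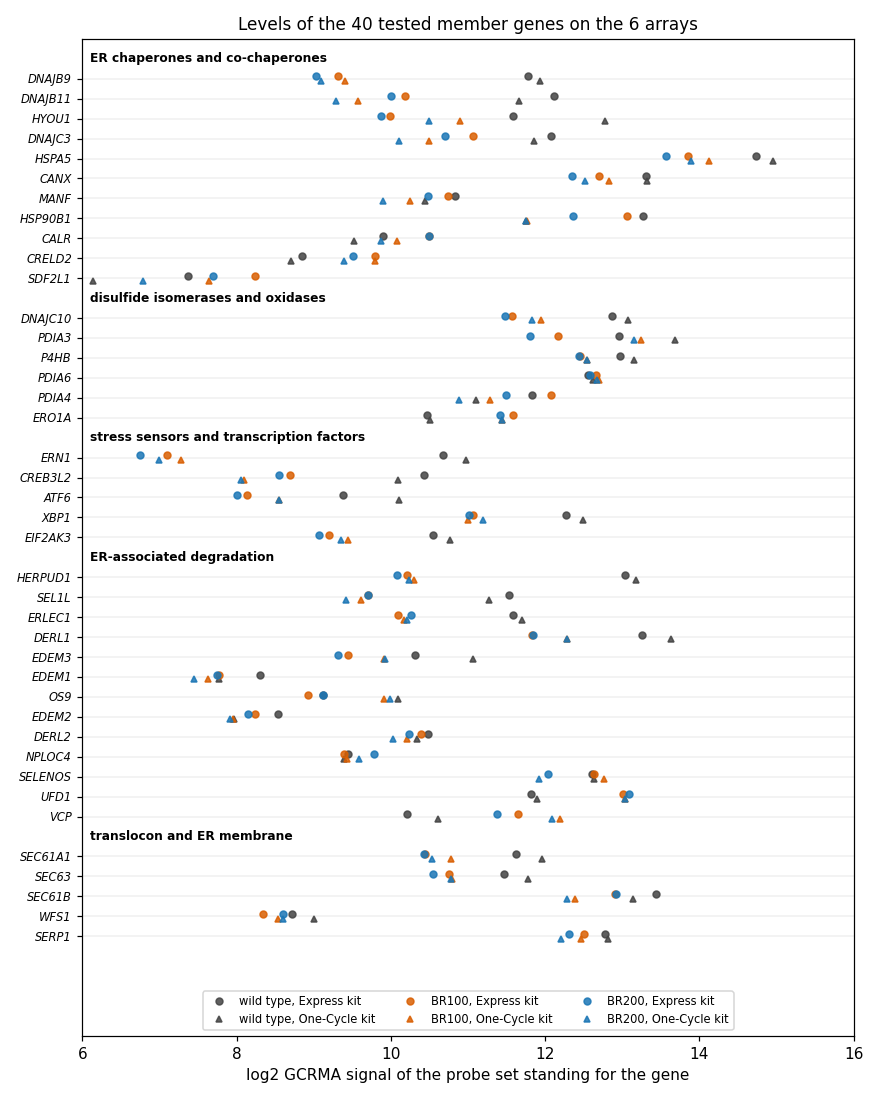
Log2 GCRMA signal (x axis) of the probe set standing for each of the 40 tested genes (rows, grouped by role), 1 point per array, with colour for variant and shape for labelling kit. The wild type points of ERN1, HERPUD1 and DNAJB9 stand to the right of all resistant points of the same gene, while those of VCP, UFD1 and CRELD2 stand to the left.

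Because the response works through short promoter elements, the windows from 250 bases before to 50 bases after each annotated start were searched on both strands (RefSeq, GRCh38.p14). Windows were held for 40 of the 44 genes. The ER stress response element (ERSE) was written as CCAAT, 9 free bases and CCACG, and it was found in 9 of those 40 genes (22.5%) and in 25 of 27305 genes overall (0.0916%). The shorter ERSE-II, ATTGG followed by 1 free base and CCACG, was found in 3 of the 40 (HERPUD1, HYOU1 and SDF2L1) and in 19 genes overall (0.0696%). Both end in CCACG, which 80.0% of the 40 genes and 42.1% of all genes held, and both contain the CCAAT box in one orientation. Among the 8620 tested genes with a window, 57.5% held CCACG, 0.151% an ERSE and 0.162% an ERSE-II. Genes of this list are known largely as users of these elements, so the shares describe the list. Below, the match is in capitals and each sequence reads 5′ to 3′ on the gene's own strand, so a match on the other strand appears as its reverse complement. The first 4 sequences are from genes that fell, and they are shown because they include HSPA5, the central ER chaperone, and XBP1 itself.
HSPA5, chr9:125241371-125241429, 66 to 48 bases before the start: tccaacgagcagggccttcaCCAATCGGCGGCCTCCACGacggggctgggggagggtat
XBP1, chr22:28800583-28800641, 52 to 34 bases before the start: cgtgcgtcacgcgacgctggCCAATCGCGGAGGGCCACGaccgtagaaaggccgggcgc
HERPUD1 (ERSE-II), chr16:56932005-56932055, 117 to 107 bases before the start: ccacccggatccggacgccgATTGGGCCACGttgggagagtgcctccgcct
HYOU1 (ERSE-II, the nearer of 2), chr11:119057254-119057304, 79 to 69 bases before the start: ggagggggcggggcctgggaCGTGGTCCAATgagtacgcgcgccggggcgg
The next 3 are from genes that rose in BR100, for comparison with those that fell.
CALR, chr19:12938364-12938422, 225 to 207 bases before the start: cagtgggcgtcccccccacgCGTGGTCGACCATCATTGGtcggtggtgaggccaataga
CRELD2, chr22:49918534-49918592, 80 to 62 bases before the start: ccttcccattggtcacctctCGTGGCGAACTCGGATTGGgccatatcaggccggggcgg
SDF2L1 (ERSE-II), chr22:21642094-21642144, 188 to 178 bases before the start: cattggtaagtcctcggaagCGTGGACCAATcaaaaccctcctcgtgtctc
The last 2 are from genes that passed in neither comparison on the probe sets standing for them. HSP90B1 held 2 matches, of which the nearer is shown.
HSP90B1, chr12:103930301-103930359, 89 to 71 bases before the start: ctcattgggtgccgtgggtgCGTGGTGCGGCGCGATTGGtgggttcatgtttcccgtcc
PDIA6, chr2:10812833-10812891, 86 to 68 bases before the start: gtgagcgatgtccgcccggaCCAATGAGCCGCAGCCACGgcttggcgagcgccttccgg

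Genes with an ERSE moved in either direction, as did all genes tested (31.8% lower and 36.7% higher in BR100). Of the 8 tested genes with the longer element, HSPA5, CANX, XBP1 and SERP1 fell in both resistant variants, and CALR and CRELD2 rose in both. HSP90B1 and PDIA6 passed in neither on the probe sets standing for them. However, 3 other PDIA6 probe sets rose in BR100, and 2 of these rose in BR200. The UPRE core TGACGTGG, bound by XBP1 and ATF6, was found in HYOU1, DNAJC10 and VCP, of which HYOU1 and DNAJC10 fell and VCP rose. That core is in 0.927% of all genes, and in HYOU1 it overlaps the farther ERSE-II. HERPUD1 was the one gene of the list with the amino acid response core TTGCATCA, through which ATF4 acts (1.08% of all genes). Outside the list, 5 tested genes held an ERSE. Among them FICD, which modifies and holds back the HSPA5 protein, fell by 1.79 in BR100 and by 2.02 in BR200 on the log2 scale. EIF2A, a near neighbour of SERP1 on chromosome 3, rose by 1.09 and 1.08. A match is a run of letters and was not shown here to be bound.

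All 5 stress sensors and transcription factors fell in both variants, where 31.8% of all genes fell in BR100 and 31.2% in BR200. The median log2 change of the 5 was −1.40 in BR100 and −1.47 in BR200. ERN1, the sensor that splices XBP1, changed most. Its signal was 10.67 and 10.97 on the wild type arrays, 7.09 and 7.28 on those of BR100 and 6.74 and 6.99 on those of BR200 (Express, then One-Cycle, log2). No resistant array came within 3 log2 units of the lower wild type array. The change was −3.64 (SE 0.0691, adjusted p = 6.99e-05) in BR100, a 12.4-fold fall, and −3.96 (SE 0.0691, adjusted p = 8.06e-05) in BR200, a 15.5-fold fall. XBP1 itself read 12.27 and 12.49 in wild type, 11.07 and 11.001 in BR100 and 11.01 and 11.19 in BR200. These arrays do not separate spliced from unspliced XBP1. XBP1 fell by 1.34 (SE 0.0972) and 1.28 on the log2 scale.

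ATF6, the sensor released by cleavage, had 4 probe sets above the filter, and all of them fell in both variants, though by unequal amounts. The probe set with the highest mean, which stands for the gene, read 9.38 and 10.10 in wild type, 8.13 and 8.55 in BR100 and 7.999 and 8.55 in BR200, a change of −1.40 and −1.47. The other 3 changed by −3.27 to −3.52 in BR100 and by −2.84 to −3.09 in BR200. The size of the ATF6 fall thus depends on the probe set, and its direction does not. EIF2AK3, which encodes PERK, read 10.54 and 10.76 in wild type, 9.20 and 9.44 in BR100 and 9.07 and 9.35 in BR200. That is a change of −1.33 (SE 0.0654, adjusted p = 0.000246) and −1.44. CREB3L2, an ATF6-like membrane-bound factor, fell by 1.86 and 1.95, from 10.43 and 10.09 to between 8.06 and 8.69 on the resistant arrays.

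The 11 chaperones and co-chaperones split, with 6 lower and 3 higher in BR100 (median −0.55). In BR200, 7 were lower and 2 higher (median −0.88). The shares of all genes were 31.8% lower and 36.7% higher in BR100, and 31.2% and 35.4% in BR200. HSPA5, the Hsp70 of the ER known as BiP, read 14.73 and 14.95 in wild type, 13.85 and 14.13 in BR100 and 13.57 and 13.89 in BR200. The groups did not overlap, and the change was −0.86 (SE 0.0683, adjusted p = 0.000730) and −1.12 (adjusted p = 0.000432). Its second probe set fell by 2.45 and 2.56. DNAJB9, a J-domain partner that hands misfolded proteins to HSPA5 and restrains IRE1, read 11.78 and 11.93 in wild type, 9.32 and 9.40 in BR100 and 9.03 and 9.09 in BR200. Its 3 probe sets all fell, and the one standing for the gene changed by −2.50 (SE 0.0677, adjusted p = 9.24e-05) and −2.80. DNAJB11, the partner that brings HSPA5 unfolded clients, fell by 2.02 and 2.25. DNAJC3, an inhibitor of eIF2alpha kinases that also acts as an HSPA5 partner, fell by 1.19 and 1.57. Of its 4 probe sets, 3 fell in both variants and the other was at −0.25 and −0.83 without passing. HYOU1, the exchange factor that releases ADP from HSPA5, read 11.58 and 12.78 in wild type and between 9.87 and 10.90 on the resistant arrays. Its kits differed by −0.91 (Express minus One-Cycle), and its fall was 1.74 in BR100 (adjusted p = 0.0563 without the kit block).

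CANX and CALR, the paired lectin chaperones that hold glycoproteins in the folding cycle, moved apart. CANX, the membrane-bound form, read 13.30 and 13.32 in wild type, 12.69 and 12.83 in BR100 and 12.34 and 12.52 in BR200. It fell by 0.55 and 0.88. Of the 4 CANX probe sets above the filter, 2 fell in BR100 and all 4 fell in BR200. CALR, the soluble form, read 9.89 and 9.52 in wild type, 10.499 and 10.07 in BR100 and 10.497 and 9.87 in BR200. CALR rose by 0.58 (SE 0.0897, adjusted p = 0.00503) and 0.48 (adjusted p = 0.00963), and its 3 probe sets rose in both. The probe set standing for CALR is of a kind that can bind related transcripts. In BR200 the CALR One-Cycle array lies below the wild type Express array, so the groups overlap unless arrays of the same kit are compared. The BR200 call was lost without the wild type Express array (adjusted p = 0.0621) or without the BR200 Express array (adjusted p = 0.0602).

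CRELD2 and SDF2L1 rose beside the fallers. CRELD2, a stress-induced secreted protein of the ER, read 8.85 and 8.70 in wild type, 9.79 and 9.79 in BR100 and 9.51 and 9.39 in BR200, with no overlap. The change was 1.01 (SE 0.0733, adjusted p = 0.000573) and 0.68 (adjusted p = 0.00187). SDF2L1, a cofactor of the DNAJB11 and HSPA5 chaperone cycle, read 7.37 and 6.14 in wild type, 8.24 and 7.64 in BR100 and 7.69 and 6.78 in BR200. Both BR100 arrays were above both of wild type, and BR200 overlapped wild type. It rose by 1.19 (SE 0.166, adjusted p = 0.00364) in BR100, and its BR200 value of 0.49 did not pass (adjusted p = 0.0569). MANF, a small secreted cofactor of HSPA5, was at −0.14 in BR100 and fell by 0.45 in BR200, a call lost without the BR200 One-Cycle array (adjusted p = 0.0621). HSP90B1, the Hsp90 of the ER, was at −0.09 (95% interval −0.73 to 0.54) and −0.45 (−1.08 to 0.18). Its kits differed by 1.14, and the probe set standing for it is of a kind that can bind related transcripts. A pair of further probe sets annotated to HSP90B1 and a microRNA, left out of the tests, read lower in both resistant variants than in wild type within each kit.

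**Figure D2:**
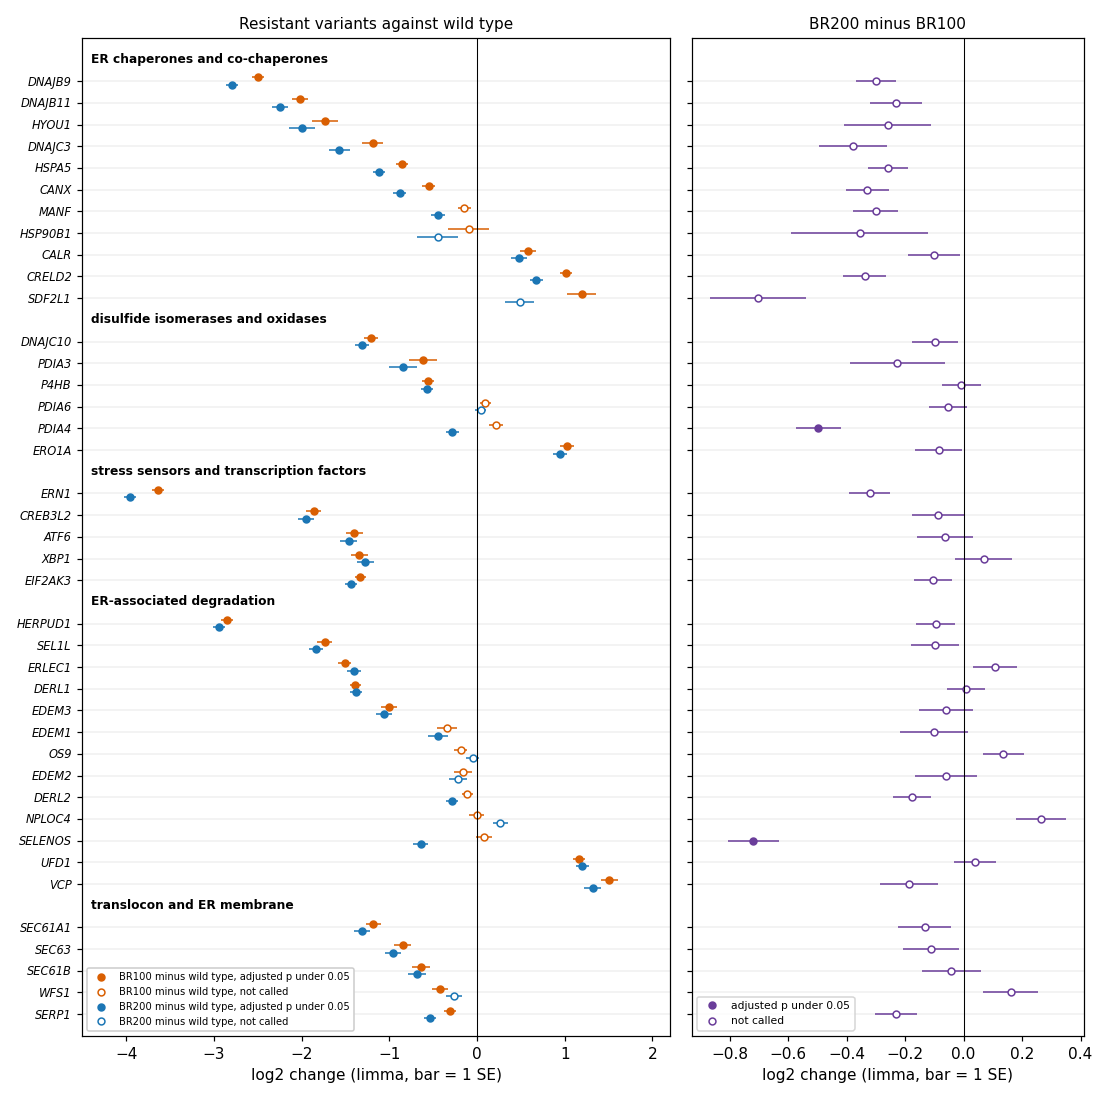
Log2 change of each tested gene with bars of 1 SE from limma, BR100 and BR200 against wild type on the left and BR200 minus BR100 on the right, on different x scales; filled points have adjusted p under 0.05. On the left most points lie below 0 and the 2 variants lie close together. On the right all 11 chaperones lie below 0, and only PDIA4 and SELENOS are filled.

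Of 6 tested disulfide isomerases and oxidases, 3 fell and 1 rose in BR100 and 4 fell and 1 rose in BR200. Among all genes, 31.8% fell and 36.7% rose in BR100, and 31.2% and 35.4% did in BR200. With 6 genes these counts are given as descriptions. DNAJC10, a reductase that helps unfold ERAD clients, fell by 1.21 (SE 0.0781) and 1.31, and its 4 probe sets all fell. P4HB, the founding isomerase, fell by 0.56 and 0.57, from 12.97 and 13.15 to between 12.44 and 12.54. PDIA3, which works on glycoproteins held by CANX and CALR, had a dimmer probe set that passed in neither variant (−0.38 and −0.36). On the probe set standing for it, PDIA3 fell by 0.62 and 0.84. Its kits differed by −1.05, and the BR100 call was lost without the wild type Express array (log2 change −0.38, adjusted p = 0.0992), the BR100 Express array (adjusted p = 0.127) or the BR100 One-Cycle array (adjusted p = 0.112), as was the BR200 call without the BR200 Express array (adjusted p = 0.0531). PDIA6, an isomerase that damps IRE1, was at 0.09 and 0.04 on the probe set standing for it. Its other 3 probe sets rose by 0.43 to 0.68 in BR100. In BR200, 2 of those rose, by 0.28 and 0.42, and the third was at 0.23 without passing.

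ERO1A, the oxidase that recharges the isomerases, had probe sets called in opposite directions in BR100. The probe set with the highest mean read 10.46 and 10.51 in wild type, 11.58 and 11.44 in BR100 and 11.42 and 11.44 in BR200, a rise of 1.03 (SE 0.0801, adjusted p = 0.000688) and 0.94. Another of its probe sets read 10.08 and 9.95 in wild type, 9.22 and 8.81 in BR100 and 9.92 and 9.55 in BR200. That one fell by 1.003 in BR100 (adjusted p = 0.00238 over all probe sets) and was at −0.28 in BR200, and the third was at −0.05 and 0.24. ERO1A is therefore counted as higher by the rule for choosing probe sets, and no direction is settled for the gene.

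Among the ERAD genes, HERPUD1, SEL1L, DERL1, ERLEC1 and EDEM3 fell in both variants, while VCP and UFD1 rose in both. Of 13 tested, 5 fell and 2 rose in BR100 (median −0.19) and 8 fell and 2 rose in BR200 (median −0.44). The 5 lower of 13 in BR100 is close to the 31.8% of all genes that fell. HERPUD1, a membrane scaffold of the HRD1 ubiquitin ligase complex, read 13.04 and 13.18 in wild type, 10.21 and 10.30 in BR100 and 10.08 and 10.24 in BR200. It changed by −2.85 (SE 0.0663, adjusted p = 7.65e-05), a 7.21-fold fall, and by −2.95 (adjusted p = 9.48e-05). SEL1L, the adaptor that stabilises HRD1, read 11.53 and 11.27 in wild type and between 9.42 and 9.70 on the resistant arrays. It fell by 1.74 and 1.84, and its 4 probe sets all fell. DERL1, a rhomboid-like protein of the retrotranslocation channel, fell by 1.39 and 1.38 on the probe set standing for it, and another was at −0.27 in BR100 without passing and fell by 0.34 in BR200. Its homologue DERL2 was at −0.11 in BR100 and fell by 0.29 in BR200, while a dimmer DERL2 probe set fell by 0.51 in BR100 (limma adjusted p = 0.0465) and was at −0.40 in BR200. The DERL2 call was lost without the wild type One-Cycle array or either BR200 array (adjusted p from 0.0693 to 0.118).

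The lectins and mannosidases that mark glycoproteins for ERAD did not move as a block. ERLEC1, a lectin of the HRD1 complex, read 11.58 and 11.70 in wild type and between 10.08 and 10.26 on the resistant arrays, and fell by 1.51 and 1.40. OS9, the other lectin of that complex, was at −0.19 (95% interval −0.38 to 0.01) and −0.05. EDEM3, a mannosidase that trims glycans for recognition, fell by 1.005 and 1.06. EDEM1 was at −0.34 in BR100 and fell by 0.44 in BR200, and EDEM2 was at −0.16 and −0.22 without passing. The EDEM1 call was lost without the wild type Express array (log2 change −0.28) or either BR200 array (adjusted p from 0.105 to 0.134 over these).

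VCP and UFD1 rose. VCP, the ATPase that pulls substrates out of the membrane, read 10.21 and 10.61 in wild type, 11.65 and 12.19 in BR100 and 11.37 and 12.09 in BR200, with no overlap. Both of its probe sets rose, and the one standing for the gene changed by 1.51 (SE 0.0979, adjusted p = 0.000445), a 2.84-fold rise, and by 1.32 (adjusted p = 0.000678). UFD1, a cofactor through which VCP binds ubiquitinated clients, read 11.82 and 11.90 in wild type and 13.00 to 13.09 on the resistant arrays, a rise of 1.16 (SE 0.0714) and 1.20. NPLOC4, the partner with which UFD1 forms its dimer, was at −0.00 (95% interval −0.23 to 0.23) in BR100 and 0.26 (0.03 to 0.49, adjusted p = 0.0509) in BR200. SELENOS, the selenoprotein that recruits VCP to the ER membrane, was at 0.08 in BR100 and fell by 0.64 in BR200.

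The 5 translocon and membrane genes fell in BR100, and 4 of them fell in BR200, against 31.8% and 31.2% of all genes. SEC61A1, the channel through which proteins enter the ER, read 11.62 and 11.96 in wild type and between 10.42 and 10.77 on the resistant arrays. It fell by 1.18 and 1.32, while its other probe set was at −0.16 and −0.46 without passing. SEC61B, a small subunit of that channel, fell by 0.64 and 0.69. SEC63, which couples HSPA5 to the channel, fell by 0.85 and 0.96 on the probe set standing for it and by up to 2.23 and 2.47 on its other 3. SERP1, a stress-associated partner of the channel, fell by 0.31 and 0.54 on the probe set standing for it. A pair of further bright SERP1 probe sets fell more, by 1.22 and 1.47 and by 1.15 and 1.42. A dim SERP1 probe set, at 4.87 to 5.82 on all arrays, rose by 0.66 and 0.71. WFS1, an ER membrane protein that restrains ATF6, fell by 0.42 in BR100 and was at −0.26 in BR200. The BR100 calls of SERP1 and WFS1 were lost when either BR100 array or the wild type One-Cycle array was left out, with adjusted p from 0.0750 to 0.0997.

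Targets were also counted by the branch usually credited with them, although many answer to more than one. Of 8 tested XBP1-type targets, 6 fell and none rose in BR100 and 7 fell and none rose in BR200. The medians were −0.91 and −1.001. These counts rest on the choice of probe set for PDIA6, which passed in neither variant here. With the mean of its probe sets, PDIA6 rose by 0.43 and 0.24 (limma adjusted p = 0.00371 and 0.0236). Of 9 ATF6-type targets, 3 fell and 3 rose in BR100 (median −0.09) and 5 fell and 2 rose in BR200 (median −0.45), among them HERPUD1 at −2.85 and SDF2L1 at 1.19. Among all genes tested, 31.8% fell and 36.7% rose in BR100, and 31.2% fell and 35.4% rose in BR200. The ATF6-type counts in BR100 are close to those shares. No test of the difference between the branches was made. For the PERK branch, all 11 tested output genes fell in BR100 (median −4.10) and 10 fell in BR200 (median −3.83). CHAC1, a glutathione-degrading enzyme, fell from 9.02 and 8.92 in wild type to between 2.81 and 2.91 on the resistant arrays, near the lowest value, so the size of its fall depends on the background estimate. The exception was ATF3, a stress-induced transcription factor. It read 9.42 and 9.28 in wild type, 5.61 and 4.63 in BR100 and 9.78 and 9.58 in BR200. In BR200 against BR100, ATF3 (4.56) and PPP1R15A (1.48) were higher and DDIT4 (−1.42) was lower. The other 8 of the 11 did not pass there. These calls depend on having every BR100 and BR200 array, as given below for this comparison. PPP1R15A read 5.09 and 7.07 in BR100 and 6.97 and 8.16 in BR200, so these groups overlap, and its kits differed by −1.48. Many of the PERK output genes can also be driven by the other eIF2alpha kinases.

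Secretory pathway genes outside the list were counted the same way. Of 127 tested, 60 fell and 22 rose in BR100 (median −0.24) and 66 fell and 21 rose in BR200 (median −0.28). Of all genes, 31.8% fell and 36.7% rose in BR100 and 31.2% and 35.4% did in BR200, and the counts of the smaller lists, several of them close to those shares, are given as descriptions. Among 23 other ER folding enzymes, 17 fell and 3 rose in BR100. CLGN, a homologue of CANX, read 10.65 and 10.51 in wild type and 2.31 to 2.42 on the resistant arrays, close to the lowest value, so its fall is called but its size depends on the background estimate. SUMF1, the enzyme that activates sulfatases, rose by 1.44 and 1.67. Of 26 other ERAD genes, 10 fell and 5 rose in BR100. SVIP, a small VCP-binding inhibitor of ERAD, rose by 1.65 and 1.43, and FAM8A1, a cofactor of HRD1, fell by 1.74 and 1.80. For 20 other translocon and signal peptidase genes the counts were 11 lower and 2 higher in BR100 and 13 and 2 in BR200, with SRPRB, a subunit of the signal recognition particle receptor, down by 1.48 and 1.80. Of 21 N-glycosylation genes, 5 rose and 5 fell in BR100 and 4 rose and 9 fell in BR200, with ALG6, a glucosyltransferase, up by 1.70 and 1.66. Of 19 genes of ER exit in COPII coats, 8 fell and 3 rose in BR100, the latter including the coat subunits SEC13 (1.43) and SEC23A (1.16). CCPG1, an ER-phagy receptor, changed by −3.02 and −2.57 and was 1 of 4 fallers among 5 such receptors in BR100. Of 13 other sensors and processing factors, 5 fell and 4 rose in each variant, with PPP1R15B, which returns eIF2alpha to its unphosphorylated state, down by 1.60 and 1.67.

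BR200 was also set directly against BR100. In BR200 against BR100, 2 of the 40 genes were lower, none was higher and 38 did not pass (limma), where 4.23% of all genes were lower and 6.39% higher. At an unadjusted p under 0.05, 11 were lower and 1 was higher, where 15.8% and 15.6% of all genes were. PDIA4, an isomerase with several active domains, read 12.07 and 11.29 in BR100 and 11.49 and 10.88 in BR200, against 11.83 and 11.10 in wild type. The difference was −0.50 (SE 0.0771, adjusted p = 0.0352). SELENOS read 12.63 and 12.76 in BR100 and 12.04 and 11.91 in BR200, against 12.61 and 12.63 in wild type, a difference of −0.72 (SE 0.0883, adjusted p = 0.0232). PDIA4 was also below wild type in BR200 (−0.28), a call lost without any 1 of the 6 arrays (adjusted p from 0.0568 to 0.184). Both calls between BR200 and BR100 were lost without the kit block, without the filter on low signal and when any 1 of the 6 arrays was left out. Leaving out a BR100 or BR200 array left 0 of all 10370 genes called in this comparison, and leaving out a wild type array left 61. In those fits the difference ran from −0.62 to −0.82 for SELENOS and from −0.42 to −0.57 for PDIA4.

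Most of the remaining differences between the resistant variants shared a sign without passing. BR200 was below BR100 for 33 of the 40 genes (82.5%), as for 52.6% of all genes tested. All 11 chaperones were lower in BR200, by 0.10 to 0.70 on the log2 scale in the model, and none passed (adjusted p from 0.0605 to 0.504). Each was also lower within each kit, where the differences ran from −0.0022 (CALR, Express) and −0.01 (HSP90B1, One-Cycle) to −0.86 (SDF2L1, One-Cycle). For HSPA5 the difference was −0.26 (95% interval −0.44 to −0.08, adjusted p = 0.0867), for DNAJB9 it was −0.30 (−0.48 to −0.12) and for ERN1 it was −0.32 (−0.51 to −0.14, adjusted p = 0.0597). P4HB was at −0.01 (−0.19 to 0.17) and DERL1 at 0.01 (−0.17 to 0.19). Some probe sets that did not stand for their gene passed over all probe sets. A dimmer DNAJB9 probe set was at −0.88 (limma adjusted p = 0.0236). A dimmer SEL1L probe set was at −0.54 (adjusted p = 0.0393), and an ERO1A probe set was at 0.72 (adjusted p = 0.0443).

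Across the list, 88 probe sets stood above the filter. In BR100, 53 of them fell and 13 rose, where 30.9% of all 19055 probe sets fell and 32.0% rose. In BR200, 58 fell and 11 rose, against 29.8% and 29.7%. Of 25 genes with at least 2 such probe sets, 14 had the same call on all of them in BR100, 9 had a call on some, and 2 had calls in opposite directions, ERO1A and SERP1. In BR200 these counts were 16, 8 and 1, the last being SERP1. ERN1 rested on 1 responding probe set, since its other probe set was at 5.84 and 5.92 in wild type and at −0.15 in BR100 without passing.

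**Figure D3:**
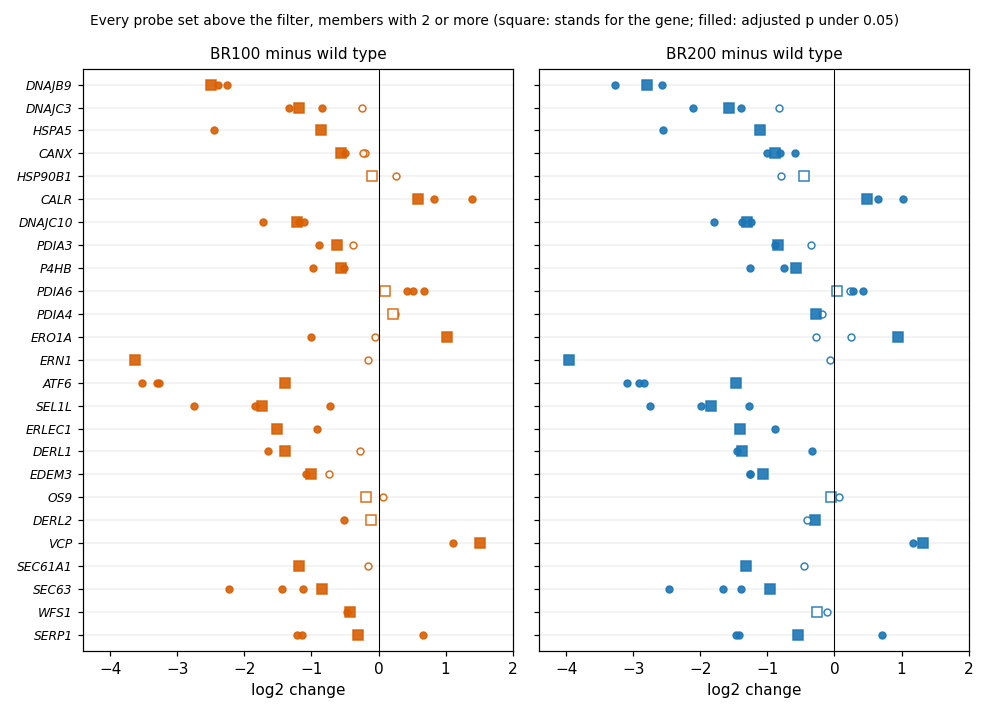
Log2 change from wild type of every probe set above the filter, for the 25 genes with at least 2, in BR100 (left) and BR200 (right); squares stand for the gene in the tests, and filled marks have adjusted p under 0.05 over all probe sets. ERO1A and SERP1 have filled marks on both sides of 0 in BR100, and the square of ATF6 lies nearer 0 than its other 3 marks.

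A gene's change can be shared with its stretch of chromosome, so each gene was set beside its nearest tested genes, 5 on each side. For 10 of the 40 genes the neighbours' median was over 0.5 log2 units from 0 in BR100, and in 5 of those the gene had the sign of its neighbours. DNAJB11, on chromosome 3, lies among such neighbours, whose median was −1.90 in BR100 and −1.65 in BR200 with 8 of 10 lower in each. The fall of DNAJB11 (−2.02 and −2.25) was of similar size. ERO1A, on chromosome 14, likewise had neighbours with a median of 1.03 and 0.997, and 9 of its 10 rose in BR100. The 349 tested genes placed on chromosome 14 had a median of 0.63 in BR100 and 0.665 in BR200. CALR, on chromosome 19, had neighbours at 1.20 and 1.08, above its own 0.58 and 0.48. SEL1L and HERPUD1 moved against their surroundings. SEL1L, also on chromosome 14, fell by 1.74 in BR100 among neighbours at 0.65, close to the median of that whole chromosome. HERPUD1, on chromosome 16, fell by 2.85 among neighbours at 0.79, a set that includes 4 metallothioneins. ERN1 fell by 3.64 in BR100 where its neighbours' median was near 0, at 0.11, and 0.20 in BR200. VCP rose by 1.51 in BR100 among neighbours at 0.33, which shared its sign. Gene copy number was not measured, and its part in these values was not tested.

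**Figure D4:**
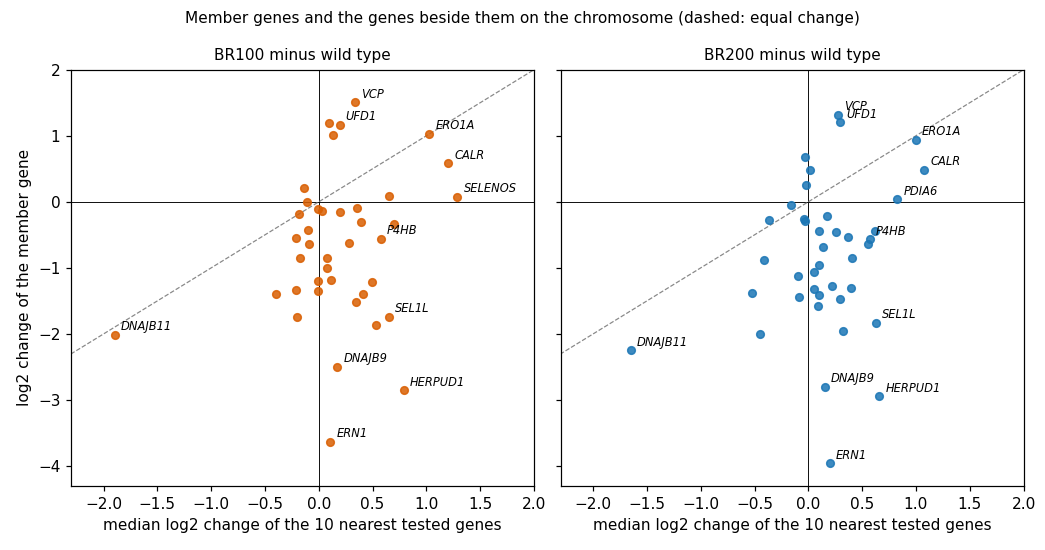
Log2 change of each of the 40 genes (y axis) against the median log2 change of its nearest tested genes on the chromosome (x axis), for BR100 (left) and BR200 (right); each point is a gene, and SELENOS had 9 neighbours where the others had 10. DNAJB11 and ERO1A lie near the dashed line of equal change in BR100, and ERN1, HERPUD1 and SEL1L lie far below it.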

How the data were processed

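Total RNA of 3 HT-29 variants was hybridised to 6 Affymetrix arrays of 54675 probe sets, 2 per variant. The deposited values are log2 signals made by the authors with GCRMA, per the submitters' processing notes, whose version is not given in the sources used here. No detection calls were used here, and 34.9% to 35.3% of probe sets per array sat at the lowest value. Precision is bounded by how far a signal stands above that floor and by having 2 arrays per variant.

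Probe sets were named from the platform annotation and checked by gene identifier against RefSeq (GRCh38.p14). Each gene was represented by the probe set of highest mean among those naming it alone, and genes reaching a log2 value of 4 on at least 2 of 6 arrays were kept (10370 kept, 9405 set aside). One linear model with terms for variant and labelling kit was run through lmFit and eBayes of limma 3.58.1 under R 4.3.3, two-sided, with Benjamini-Hochberg adjustment over all kept genes and a threshold of 0.05. Residual degrees of freedom were 2, and the prior of eBayes was worth 2.33 more. Intervals are 95% intervals from the moderated error. All tested genes of the list are named, with up to 2 risers and 2 fallers per other list and the marker genes, and FICD and EIF2A were named after their values were seen. The members and all lists were chosen with earlier results of these data known, so they are not independent evidence. Promoter windows were searched in Python 3.11.15, and figures were drawn with matplotlib 3.10.9. Alternatives changed the kit block, choice of probe set, filter, normalization, variance model, fold threshold and the arrays used.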

Additional observations from a re-analysis of the deposited data

Results flagged for a closer look

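PDIA4 and SELENOS had changes from wild type that differed between the resistant variants by the direct test. They were 2 of 40 genes, close to the 4.23% of all genes that were lower in BR200 than in BR100. As given above, neither call held without the kit block, without the filter on low signal or when an array was left out. Over all probe sets, neither PDIA4 probe set passed (limma adjusted p = 0.0561 and 0.0811), the second being at −0.43. PDIA4 was 0.50 lower in BR200 than in BR100 on the log2 scale (−0.50, limma adjusted p = 0.0352), and both arrays of BR100 lay above the wild type array of the same kit while both of BR200 lay below it. SELENOS was at −0.72 (limma adjusted p = 0.0232) in the same comparison, with BR100 above wild type on both kits (by 0.02 and 0.13) and BR200 below it on both (by 0.57 and 0.72). In BR100 the 9 nearest tested genes of SELENOS on chromosome 15 were all higher than in wild type (median 1.29), and in BR200 5 of them were (median 0.55). The part of that stretch in the difference was not tested.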

How the results depend on the processing

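With 2 arrays per variant, no setting tells culture spread from array spread, and no detection calls were used. In BR100, 3 genes rose (of 28 tested) without cross-hybridizing or shared probe sets. In BR200, 3 rose without those probe sets, and 2 rose and 17 fell at a threshold of 2-fold. Against BR100, 1 gene was higher and 1 lower in BR200 without those probe sets. The lower count there was 4 with the mean of a gene's probe sets, 7 with the filter at 6 and 11 with trend and robust variances. It was 0 without the kit block, without a filter, at 2-fold and without any 1 array, where 0 of all 10370 genes passed without a BR100 or BR200 array and 61 without a wild type array. Leaving out 1 array at a time gave 21 to 24 lower and 6 higher in BR100, and 24 to 27 lower and 4 to 6 higher in BR200. Without the kit block these were 18 and 4, and 21 and 4. Both normalization alternatives moved no count against wild type by over 1.5 times, and the largest shift of the all-gene median was to 0.10. ERO1A was at −0.0096 in BR100 with the mean of its probe sets. Without shared probe sets it was at −1.003 in BR100, −0.28 in BR200 and 0.72 in BR200 against BR100 (limma adjusted p = 0.0294), since another probe set then stands for it. Counted over the 120 gene changes, calls were lost for 18 without the kit block and 13 without the filter, and for 6 or 7 without any 1 array. The labels give no replicate numbers, and the kit is the only pairing of arrays that they name.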

Other observations

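Both genes without a probe set of their own are read by probe sets whose annotation names a microRNA beside them, so they stayed out of the tests. The probe set annotated to SYVN1, which encodes the HRD1 ubiquitin ligase at the centre of ERAD, and to MIR6751 read 9.85 and 10.22 in wild type, 8.29 and 8.24 in BR100 and 7.92 and 7.79 in BR200 (log2, Express then One-Cycle). All 4 resistant arrays lay below both wild type arrays, as they did for SEL1L and HERPUD1 of the same complex. The probe set annotated to PDIA5, a disulfide isomerase, and to MIR7110 read between 8.98 and 9.20 on all 6 arrays, and the variants overlapped.

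HSP90B1 has a pair of further probe sets annotated also to MIR3652. One read 14.19 and 14.35 in wild type, 13.76 and 14.01 in BR100 and 13.33 and 13.70 in BR200, and the other read 14.36 and 13.11, then 14.00 and 13.00, then 13.54 and 12.63. Within each kit both were lowest in BR200 and highest in wild type. The probe set that stood for HSP90B1 in the tests read 11.75 on the One-Cycle array of wild type and of BR200 alike.

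ERO1B, the second oxidase, read 2.26 and 2.60 in wild type and 2.24 on all 4 resistant arrays, and DERL3, the third derlin, was listed at 2.48 on all 6, close to the lowest value of 2.23.

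The AARE core in the HERPUD1 promoter lies 176 to 169 bases before the start, upstream of its ERSE-II at 117 to 107. HERPUD1 was the only gene of the list whose window held both kinds of element by these searches.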
